A study of Mus musculus with 14 samples.

Results

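The genes described are those of the enzymes that add or remove methyl groups on histones and on DNA in microglia, the resident macrophages of the brain. They were found by symbol in the deposited table: the KDM, MLL, SETD, PRMT, SUV39H, SUV420H, EHMT, WHSC1, DNMT and TET families, the Polycomb subunits EZH1, EZH2, EED and SUZ12, and CARM1, DOT1L, NSD1, ASH1L, ASH2L, SMYD2, SMYD3, SETDB1 and SETDB2, with KDM5C, KDM6A and KDM5D left out. This gave 64 of 14104 genes, of which 42 were counted as writers or subunits of writer complexes and 15 as erasers. The writers counted include Setd3, Setd4, Setd5 and Setd6, SET genes with other or unsettled substrates. The 7 genes kept apart match the family pattern without an established methylating activity of their own, namely Mll5 and 6 fusion partners of MLL. Genes are named as in the table, with the current symbol where it differs. The 7 germ-free (GF) and 7 specific-pathogen-free (SPF) libraries came from CD11b-positive, CD45-low microglia sorted from brains of C57BL/6 mice aged 6 to 8 weeks that had received no treatment before, at 1000 cells per brain per the series design. GF mice are raised without microorganisms and SPF mice carry a microbiota free of listed pathogens, so the comparison asks how microglial transcripts differ with and without microbes. The labels give neither sex, cage, litter nor library batch, and none of these can be told apart from housing here. They do not state that each library came from a separate animal, so the spread that p-values measure may be technical.

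Histone lysines are methylated mainly by SET-domain enzymes and by DOT1L, and arginines by the PRMT family, each using S-adenosylmethionine as methyl donor. Methyl groups are removed by flavin-dependent demethylases of the KDM1 type and by JmjC enzymes that need iron and 2-oxoglutarate. Methylation of histone H3 at lysine 4 (H3K4) and lysine 36 (H3K36) goes with transcribed chromatin, that at lysine 9 (H3K9) and lysine 27 (H3K27) with silencing, and TET dioxygenases oxidise the 5-methylcytosine that DNA methyltransferases lay down. In macrophages the H3K27 demethylase Kdm6b, also called Jmjd3, is known as a gene induced by inflammatory stimuli, and Polycomb repressive complex 2 (PRC2) is known to restrain gene programmes in microglia.

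Depth ranged from 675929 to 1184759 read equivalents in GF libraries and from 902448 to 1627293 in SPF libraries (exact permutation p = 0.0542, two-sided, n = 7 each), a read equivalent being the step between neighbouring deposited values. Genes listed at 0 made up 25.2% ± 1.55 of all genes in GF and 21.9% ± 1.58 in SPF (SD, exact permutation p = 0.00233, two-sided, n = 7 each), and the part of this in the results for low genes was not tested beyond a fit with depth as a term. Summed over 10 microglia marker genes, values lay between 47290 and 53960 normalized counts in GF and between 43040 and 50270 in SPF, and all 10 genes were present in the table. Single microglia markers moved in opposite directions, and of the 10 tested 2 rose and 3 fell. On the log2 scale Csf1r (0.30) and Tmem119 (0.27) rose, while Gpr34 (-1.03) and P2ry12 (-0.95) were among those that fell. Oligodendrocyte markers summed to 210 to 272 in GF and 265 to 318 in SPF, a log2 difference of -0.20 (exact permutation adjusted p = 0.0350 over 12 lists, n = 7 each). Border macrophage markers were near the detection limit, at sums of 0 to 17.8 in GF and 2.83 to 37.8 in SPF. The log2 difference was -2.19 (exact permutation adjusted p = 0.0857, n = 7 each), and -0.81 as a mean of log2 values (exact permutation adjusted p = 0.0303). Cell cycle markers summed to 59.9 to 161 in GF and 127 to 217 in SPF (exact permutation adjusted p = 0.129, n = 7 each). GF 6 had the lowest depth and held 1839 normalized counts of erythrocyte transcripts, against at most 61.3 in any other library. These are bulk samples, in which fewer cells of a type and less RNA per cell cannot be told apart.

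Few of these genes differed between housing conditions. Of the 64 members, 56 were abundant enough to be tested, and 1 rose and 1 fell in GF (limma, Benjamini-Hochberg adjusted p under 0.05 over all 8762 genes tested). The eraser gene Kdm6b rose and Mll5 fell. The 2 calls are 3.57% of the members tested, where 6.68% of all genes tested were called, 3.65% higher and 3.02% lower. With such a share, a role group of few genes can easily hold no call. An absence of calls in the groups below thus does not set them apart from other genes. At an unadjusted p under 0.05 the count was 6 of 56, or 10.7%, against 21.9% of all genes. Among 37 members recomputed with each library left out in turn, the difference of 25 moved by over 1.5 times without some 1 library. The measure is relative, so differences near 0 move readily, as did that of Kdm2a, at -0.00197. The 12 that did not move so were Kdm6b, Mll5, Mllt1, Ash2l, Dot1l, Eed, Mll3, Mllt6, Setd1a, Setdb1, Suv420h1 and Tet2. No member separated the 7 GF from the 7 SPF libraries completely, which 2.12% of genes tested did, 1.26% with GF above and 0.867% with GF below. Over all genes 320 calls were higher and 265 lower. Scaling to the upper quartile gave 254 higher and 326 lower, and equal library totals gave 214 higher and 403 lower.

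More members lay below than above 0. Of the 56 differences, all given as GF minus SPF on the log2 scale, 38 were negative, a share of 67.9% against 51.5% of all genes tested, and the median was -0.11 against -0.02 for all genes. Among 38 writers tested 24 were negative, with a median of -0.09. Among 13 erasers tested 10 were negative, with a median of -0.22. Transcripts of the members were long, with a median of 4646 bases against 2824 for all genes tested. With trends of length and GC content removed within each library, 32 of 56 were negative, or 57.1%, against 50.7% of all genes. The medians were then -0.05 for writers and -0.03 for erasers against -0.01 for all genes. Under the other scalings, filters and pseudocounts and with a depth term, 66.1% to 75.0% of members were negative, against 45.5% to 59.8% of all genes.

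**Figure D1:**
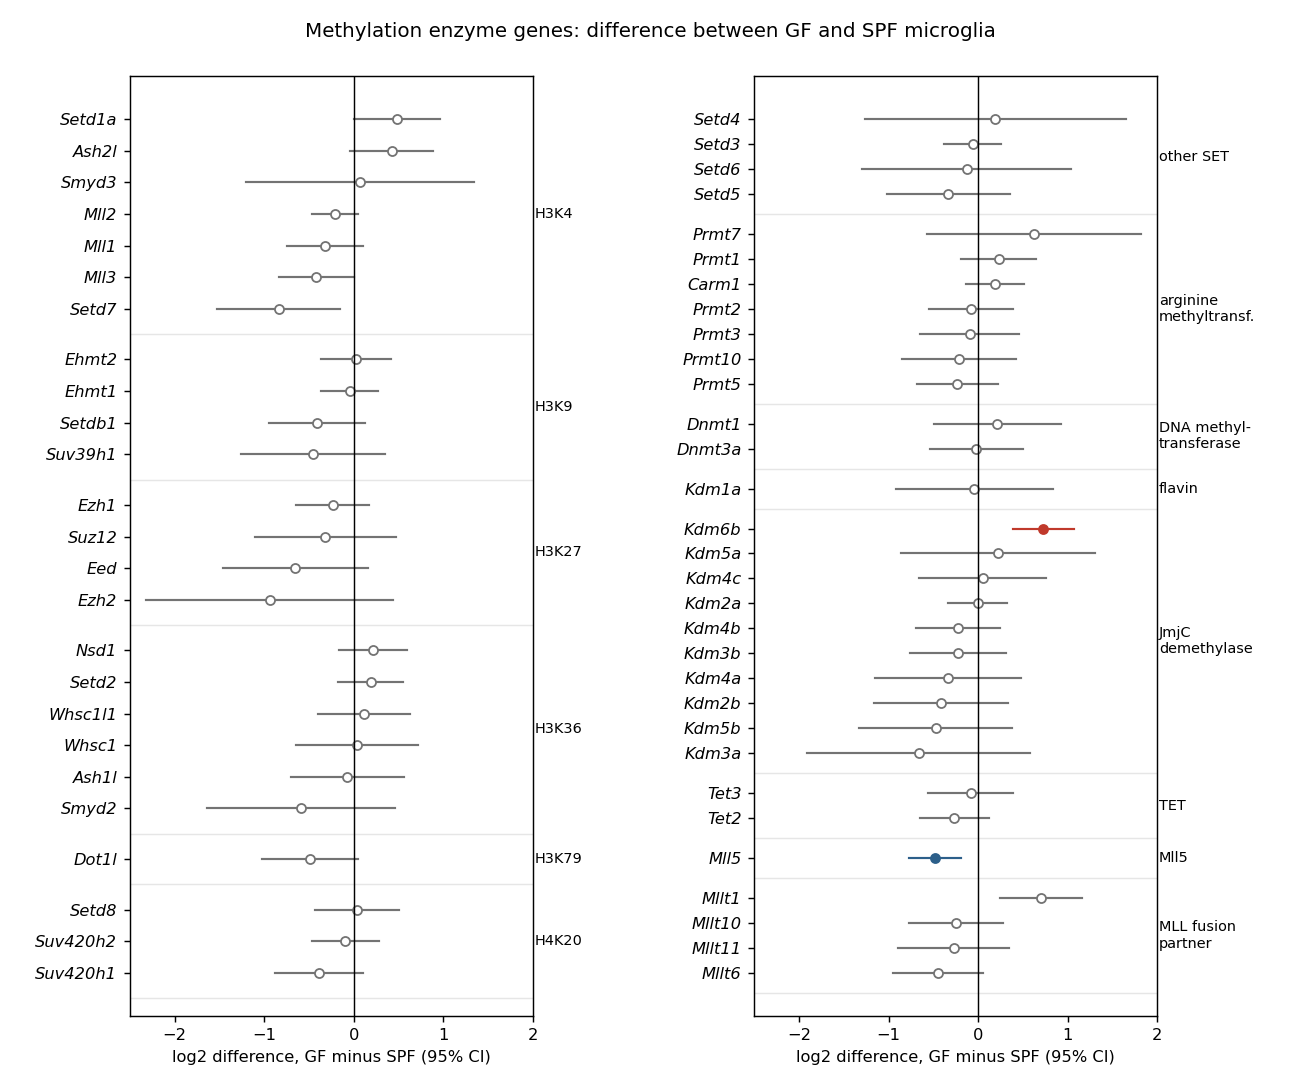
Log2 differences (GF minus SPF, points) with 95% confidence intervals (bars) for the 56 members tested, with 7 libraries per group. Writers are grouped by residue or substrate, or as other SET genes, and erasers by enzyme type. Mll5 and the MLL fusion partners stand apart. Filled points passed the threshold: Kdm6b at 0.73 and Mll5 at -0.48, while 38 of the 56 points lie left of 0.

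**Figure D2:**
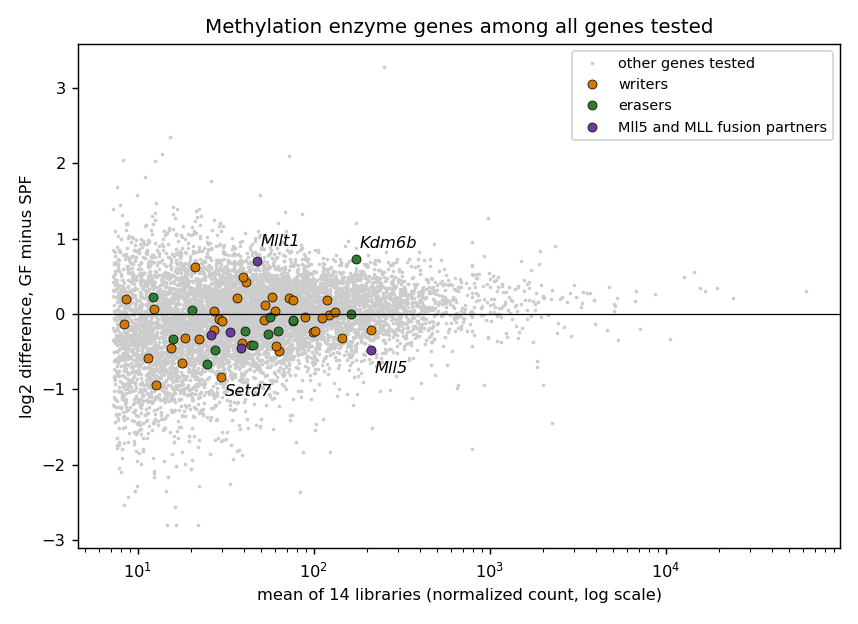
Log2 difference (GF minus SPF) against the mean of the 14 libraries in normalized counts, on a log axis, for all 8762 genes tested (grey) and the 56 members tested (coloured by class). The members lie within the cloud of other genes, with Ezh2 at -0.94 the lowest and Kdm6b at 0.73 the highest of them.

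Kdm6b, which encodes an H3K27 demethylase, was higher in germ-free microglia. Its normalized counts ran from 142 to 253 in GF, with a median of 215, against 70.2 to 153 in SPF, with a median of 139. All GF libraries lay above the SPF median and 6 of 7 lay above every SPF library, so the groups overlapped only through GF 5. The means were 215 ± 37.7 in GF and 131 ± 28.5 in SPF (SD, n = 7 each), from an average of 198 and 158 read equivalents per library. The log2 difference was 0.73 ± 0.16 (SE, 95% CI 0.39 to 1.07, limma adjusted p = 0.00701), a 1.66-fold higher level. SPF 4, at 70.2, was the lowest library, and without it the difference was 0.59 (limma adjusted p = 0.0118). Kdm6b passed in all 29 other settings tried, with limma adjusted p between 0.00339 and 0.0472. Genes known to respond to tissue dissociation summed to 548 to 1079 in GF and 813 to 1000 in SPF (exact permutation adjusted p = 0.0857, n = 7 each), and 0 of the 6 tested passed. Their part in the Kdm6b result was not tested.

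**Figure D3:**
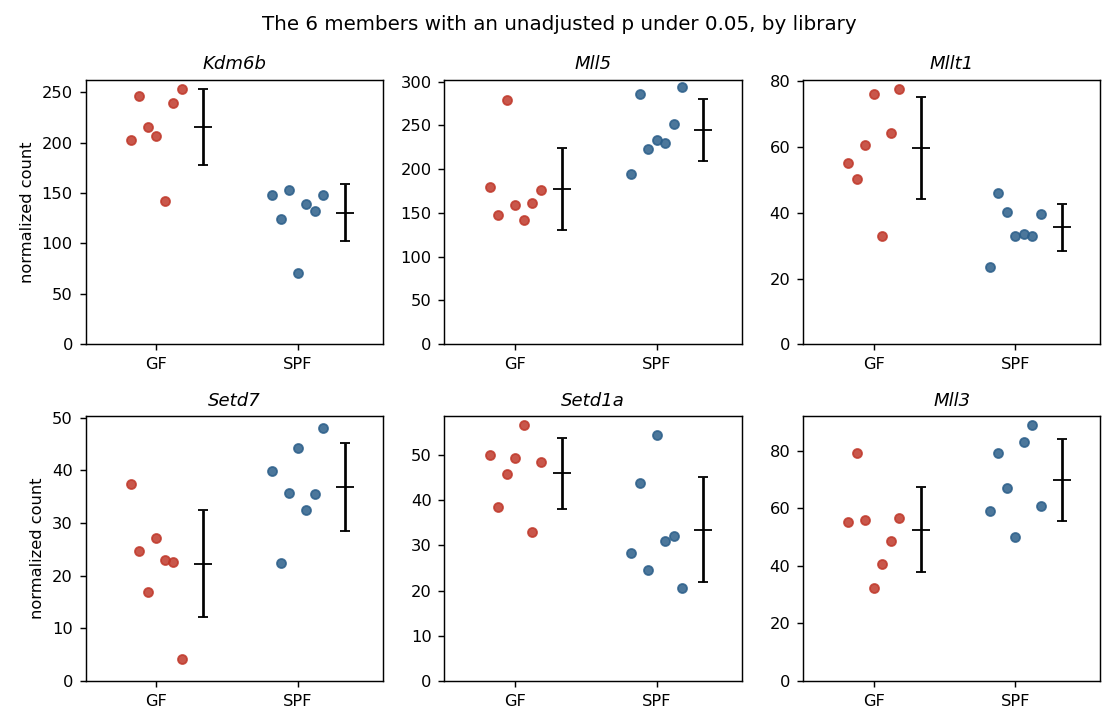
Normalized counts in each library (points), with GF left of SPF and the mean ± SD beside each group, for the 6 members with an unadjusted p under 0.05. For Kdm6b, 6 of 7 GF libraries exceed every SPF library, at 203 or more, while every panel shows some overlap of the groups.

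**Figure D4:**
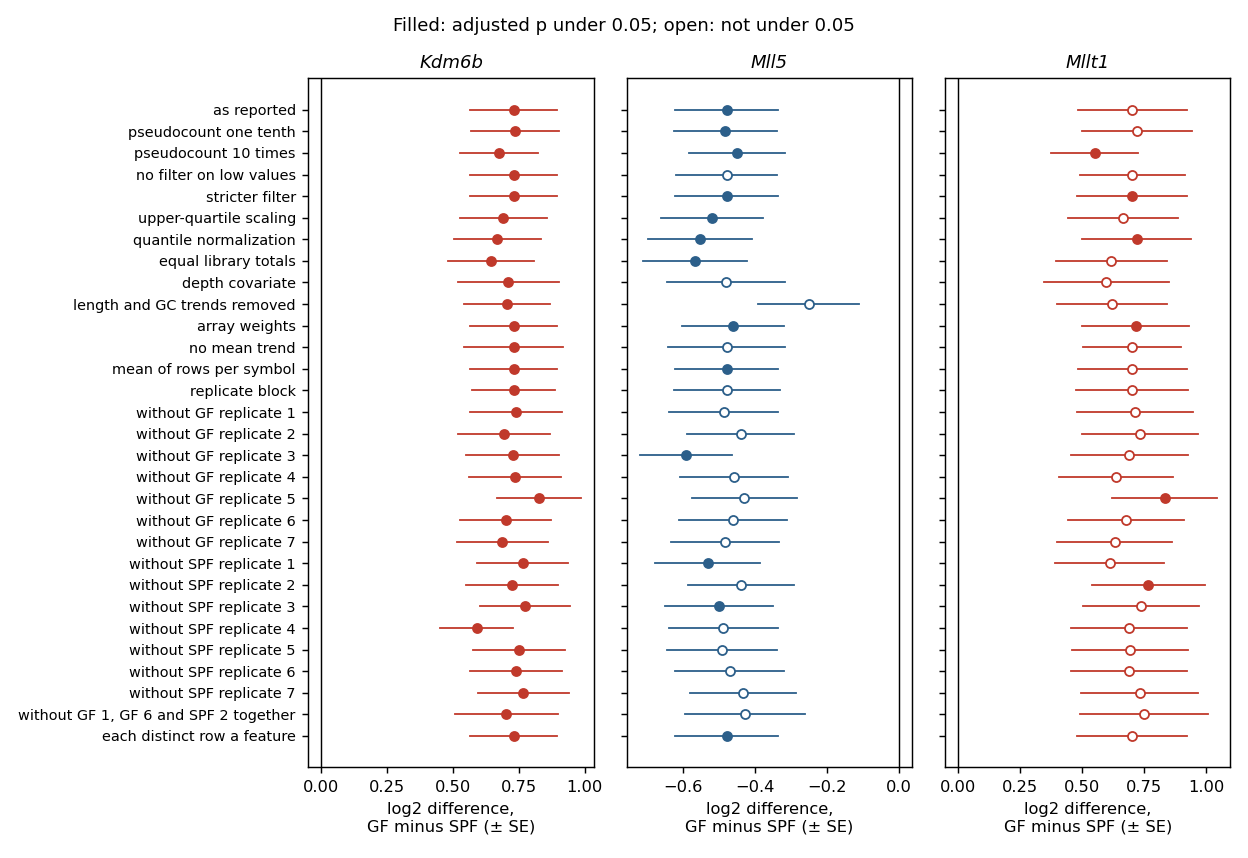
Log2 difference (GF minus SPF, ± SE) of Kdm6b, Mll5 and Mllt1 as reported and under each of 29 other settings, with filled points where the adjusted p was under 0.05. Kdm6b is filled in every row, Mll5 in 12 and Mllt1 in 6 of the 29 other settings.

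The other demethylase genes gave no call. Kdm1a, or LSD1, which removes methyl groups from H3K4 as part of CoREST complexes, ran from 14.9 to 116 in GF with a median of 47.5, and from 19.5 to 111 in SPF with a median of 49.8. Its libraries spread over a wide range within each housing condition, and the difference was -0.04 ± 0.42 (SE, limma adjusted p = 0.969), with an interval from -0.91 to 0.83. Kdm2a, an H3K36 demethylase gene, was measured more closely, at 165 ± 43.8 in GF and 161 ± 23.6 in SPF (SD, n = 7 each), and its interval ran from -0.33 to 0.33. Kdm5a and Kdm5b, whose products remove methyl groups from H3K4, had medians of 12.6 and 26.7 in GF against 11.7 and 29.2 in SPF, with overlapping libraries. Kdm3a, an H3K9 demethylase gene, had the largest negative difference of the erasers counted here, -0.66 ± 0.61 (SE, limma adjusted p = 0.569), at medians of 21.3 in GF and 29.9 in SPF. It was -0.38 without GF 4 or without GF 5, -0.42 without SPF 7 and -1.14 without SPF 4. Demethylase and related genes under other symbols were counted as partner genes. Of these, Phf8 (-0.95) and Jmjd1c (-0.71) were negative, and Phf2 (0.19), Jhdm1d, now Kdm7a (0.29), Jmjd6 (0.62) and Jmjd5, now Kdm8 (0.66), were positive, without a call. Kdm4a, Kdm4b and Kdm4c, whose products act on H3K9 and H3K36, differed by -0.34, -0.22 and 0.05. Kdm2b, an H3K36 demethylase gene, differed by -0.42, and Kdm3b, an H3K9 demethylase gene, by -0.23, with all 7 GF libraries of Kdm3b below its SPF median. Kdm1b was under the limit for testing, at 0 to 6.94 in GF and 1.41 to 10.2 in SPF.

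DNA methylation genes showed no call in either direction. Dnmt1, the maintenance methyltransferase gene, ran from 8.68 to 61.8 in GF with a median of 48.4, and from 22.5 to 50.9 in SPF with a median of 26.96. The GF libraries reached both below and above the SPF range, and the difference was 0.22 ± 0.35 (SE, limma adjusted p = 0.769). Leaving out 1 library gave values from 0.085, without GF 3, to 0.53, without GF 6, and the fit with depth as a term gave 0.75 (limma adjusted p = 0.204). Dnmt1 is known to be high in dividing cells, and the part of the cell cycle markers given above was not tested. Dnmt3a, a de novo methyltransferase gene, had a median of 132 in GF and 111 in SPF, and its difference was -0.02 with an interval from -0.53 to 0.50. A second row of Dnmt3a, for another transcript, had medians of 45.8 in GF and 46.6 in SPF and a difference of 0.16 ± 0.21 (SE, limma adjusted p = 0.708 with each distinct row tested on its own). Dnmt3b was too low to test, at 0 to 7.29 in GF and 0.884 to 15.5 in SPF. Tet2, one of the dioxygenase genes, ran from 41.3 to 62.0 in GF and from 48.1 to 79.2 in SPF, a difference of -0.26 ± 0.19 (SE, limma adjusted p = 0.442) that turned to 0.02 with length and GC trends removed. Tet3 differed by -0.08 ± 0.23 (SE), with medians of 61.7 in GF and 79.2 in SPF. Tet1 was near the detection limit, with 3 GF libraries and 2 SPF libraries at 0 and a highest value of 15.6, in GF 1.

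The H3K4 methyltransferase genes leaned in both directions and none of the 7 passed. Setd7, which encodes a monomethyltransferase of H3K4 and of other proteins, ran from 4.21 to 37.5 in GF with a median of 22.9, and from 22.5 to 48.0 in SPF with a median of 35.7. Of the 7 GF libraries 6 lay below the SPF median, and the difference was -0.84 ± 0.33 (SE, limma adjusted p = 0.136). Without GF 7, the library at 4.21, it was -0.52 (limma adjusted p = 0.247). Setd1a, the catalytic subunit gene of a SET1 complex, had medians of 48.4 in GF and 31.1 in SPF, a difference of 0.49 ± 0.23 (SE, limma adjusted p = 0.225). All 7 GF libraries lay above the SPF median of Setd1a, although SPF 4, at 54.3, exceeded 6 of them. Ash2l, a core subunit gene of all SET1 and MLL complexes, showed a like order, with all 7 GF libraries above the SPF median, at a difference of 0.42 ± 0.23 (SE, limma adjusted p = 0.282). The large MLL genes lay on the other side of 0. Mll3, now Kmt2c, which encodes an enhancer H3K4 monomethyltransferase, had medians of 55.2 in GF and 67.1 in SPF and a difference of -0.42 ± 0.20 (SE, limma adjusted p = 0.228). Mll2, now Kmt2d, averaged 197 ± 34.0 in GF and 227 ± 22.1 in SPF (SD, n = 7 each), a difference of -0.21 ± 0.13 (SE). Mll1, now Kmt2a, differed by -0.32 ± 0.21 (SE). Smyd3 differed by 0.07 ± 0.62 (SE), at medians of 10.9 in GF and 11.9 in SPF.

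Promoter sequences are shown for the 4 members that had an unadjusted p under 0.05 and an entry in the RefSeq promoter table (GRCm38.p6), since 2 of them had positive and 2 had negative differences. Each runs from 250 bases before to 50 bases after the annotated start, 5′ to 3′ on the strand of the gene, and the log2 difference stands in brackets and capitals mark the GC box GGGCGG, the motif of Sp1-type factors, on either strand.
Mllt1 (0.70), chr17:56935339-56935638, minus strand: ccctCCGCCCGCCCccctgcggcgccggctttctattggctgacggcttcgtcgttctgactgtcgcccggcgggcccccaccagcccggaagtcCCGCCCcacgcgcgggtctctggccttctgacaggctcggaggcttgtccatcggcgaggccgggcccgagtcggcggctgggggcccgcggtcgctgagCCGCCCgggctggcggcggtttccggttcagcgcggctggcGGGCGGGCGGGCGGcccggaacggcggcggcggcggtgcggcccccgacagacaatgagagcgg
Setd1a (0.49), chr7:127777139-127777438, plus strand: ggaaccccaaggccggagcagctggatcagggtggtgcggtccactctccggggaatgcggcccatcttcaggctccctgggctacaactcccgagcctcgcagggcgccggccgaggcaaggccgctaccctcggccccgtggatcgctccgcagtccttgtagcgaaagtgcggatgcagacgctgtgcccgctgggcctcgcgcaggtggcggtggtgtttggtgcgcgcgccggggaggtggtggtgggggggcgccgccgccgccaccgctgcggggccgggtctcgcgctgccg
Setd7 (-0.84), chr3:51560774-51561073, minus strand: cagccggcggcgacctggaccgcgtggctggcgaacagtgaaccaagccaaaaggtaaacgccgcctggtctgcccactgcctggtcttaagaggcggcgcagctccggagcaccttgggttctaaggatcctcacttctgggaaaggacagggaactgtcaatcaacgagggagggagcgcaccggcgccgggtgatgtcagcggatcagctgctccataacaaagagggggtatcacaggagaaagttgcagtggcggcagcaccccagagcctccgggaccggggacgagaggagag
Mll3, now Kmt2c (-0.42), chr5:25498734-25499033, minus strand: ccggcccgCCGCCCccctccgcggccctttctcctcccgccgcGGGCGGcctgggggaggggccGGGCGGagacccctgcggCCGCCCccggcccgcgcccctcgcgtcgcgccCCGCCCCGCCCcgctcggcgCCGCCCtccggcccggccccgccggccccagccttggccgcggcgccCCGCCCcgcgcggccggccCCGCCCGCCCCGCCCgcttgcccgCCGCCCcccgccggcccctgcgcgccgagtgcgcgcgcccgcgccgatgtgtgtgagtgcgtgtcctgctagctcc
The GC box, counted with overlaps on both strands, occurred 7 times in Mllt1 and 12 times in Mll3, and 0 times in Setd1a and Setd7. It is held by 35.7% of the 32851 promoters of the same length in the table. It was thus held by Mllt1, with a positive difference, and by Mll3, with a negative one, and none of the 4 differences passed the threshold. A link between the motif and the differences was not tested. All 4 windows were rich in G and C, at 77.7% for Mllt1, 73.7% for Setd1a, 62.7% for Setd7 and 88.0% for Mll3, against a median of 52.7% over the table. The palindromic cyclic AMP element TGACGTCA, the E-box CACGTG, the AP-1 site TGACTCA and an NF-kB site were each found 0 times in the 4 windows, and the shares of all promoters that hold them were 1.79%, 7.15%, 5.20% and 0.155%. The same holds for the PU.1 site GAGGAAGT, held by 3.20% of promoters, and for a glucocorticoid element, held by 0.00913%. The STAT site TTCNNNGAA, held by 8.30%, occurred 1 time, in Setd7. The other members with an unadjusted p under 0.05 were Kdm6b and Mll5.

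The PRC2 genes, which encode the complex that methylates H3K27, had negative differences in all 4 members and no call. Over all genes tested, 51.5% of differences were negative and 6.68% were called. Ezh1, the catalytic subunit gene typical of non-dividing cells, ran from 49.4 to 125 in GF with a median of 92.5, and from 60.8 to 137 in SPF with a median of 107. The libraries overlapped over most of that range, and the difference was -0.24 ± 0.20 (SE, limma adjusted p = 0.525). Ezh2, the catalytic subunit gene of dividing cells, was sparse, with 2 GF libraries at 0, medians of 7.97 in GF and 11.04 in SPF, and a difference of -0.94 ± 0.67 (SE, limma adjusted p = 0.440). It was -0.57 without GF 1 or without GF 6, the libraries at 0, and ran from -1.80 with a pseudocount 10 times smaller to -0.066 without GF 1, GF 6 and SPF 2. Eed, which encodes the subunit that binds H3K27 trimethylation, had medians of 16.8 in GF and 20.3 in SPF and a difference of -0.65 ± 0.39 (SE, limma adjusted p = 0.342), with a highest value of 44.1, in SPF 6. Suz12 differed by -0.32 ± 0.38 (SE). Ezh2 and Eed averaged 12.7 and 17.7 normalized counts over the 14 libraries, and their intervals reached from -2.32 to 0.44 and from -1.46 to 0.15. Sums of cell cycle markers, given above, were lowest in GF 6, and their part in the Ezh2 value was not tested.

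The H3K9 methyltransferase genes were also without a call. Ehmt1 and Ehmt2, which encode the GLP and G9a enzymes of euchromatin, were among the members measured most closely. Ehmt1 averaged 88.5 ± 17.7 in GF and 90.3 ± 9.36 in SPF (SD, n = 7 each), a difference of -0.05 with an interval from -0.37 to 0.28. Ehmt2 averaged 131 ± 25 in GF and 133 ± 45.9 in SPF (SD, n = 7 each), a difference of 0.03 with an interval from -0.36 to 0.42. Setdb1, whose product is recruited by zinc finger proteins to silence retroelements, had medians of 39.6 in GF and 54.4 in SPF, with all 7 GF libraries below the SPF median, and a difference of -0.41 ± 0.26 (SE, limma adjusted p = 0.374). Suv39h1, a heterochromatin methyltransferase gene, had medians of 10.9 in GF and 12.98 in SPF. Suv39h2 was listed at 0 in all 7 SPF libraries and in 5 GF libraries, with a highest GF value of 10.4, and Setdb2 reached 6.31 in GF and 10.4 in SPF. Neither was tested.

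Genes for methylation of H3K36, H3K79 and histone H4 lysine 20 (H4K20) showed no call in 10 members, where 6.68% of all genes tested were called. Setd2, which encodes the H3K36 trimethylating enzyme that travels with RNA polymerase II, averaged 81.5 ± 21.0 in GF and 69.8 ± 7.35 in SPF (SD, n = 7 each), a difference of 0.19 ± 0.18 (SE, limma adjusted p = 0.576). Nsd1, an H3K36 dimethyltransferase gene, differed by 0.22 ± 0.19 (SE), and Ash1l, another H3K36 enzyme gene, by -0.07 ± 0.31 (SE). Smyd2 differed by -0.59 ± 0.51 (SE), at medians of 9.37 in GF and 10.8 in SPF. Dot1l, the gene of the H3K79 methyltransferase, ran from 27.7 to 90.8 in GF with a median of 48.8, and from 46.7 to 101 in SPF with a median of 73.5. Of the GF libraries 3 lay below every SPF library, and the difference was -0.49 ± 0.26 (SE, limma adjusted p = 0.273). Setd8, now Kmt5a, the H4K20 monomethyltransferase gene, averaged 60.5 ± 16.6 in GF and 60.0 ± 17.5 in SPF (SD, n = 7 each). Suv420h1, now Kmt5b, differed by -0.39 ± 0.24 (SE) and Suv420h2, now Kmt5c, by -0.09 ± 0.18 (SE), both genes of enzymes that add further methyl groups there.

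Rows for other transcripts of these genes did not always show the same values. There were 7 members that had rows with distinct values, and the row with the highest mean stands for the gene above. Another row of Suv420h1, which has 4 distinct rows, had a median of 10.1 in GF and 23.4 in SPF, with all 7 GF libraries below the SPF median. It differed by -1.14 ± 0.40 (SE, limma adjusted p = 0.0864, with each distinct row tested on its own), against -0.39 for the row kept, and the other two rows differed by -0.67 and -0.66. A second row of Whsc1, now Nsd2, an H3K36 dimethyltransferase gene, had a median of 8.68 in GF and 16.4 in SPF and differed by -0.88 ± 0.38 (SE, limma adjusted p = 0.175), against 0.04 for the row kept. For Whsc1l1, now Nsd3, a second row had medians of 8.90 in GF and 16.3 in SPF and differed by -0.71 ± 0.44 (SE, limma adjusted p = 0.354), against 0.12 for the row kept. None of these rows passed, where 6.69% of distinct rows did. Whether rows of 1 gene differ from each other was not tested, and the sources used here do not state how reads were divided among transcripts.

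**Figure D5:**
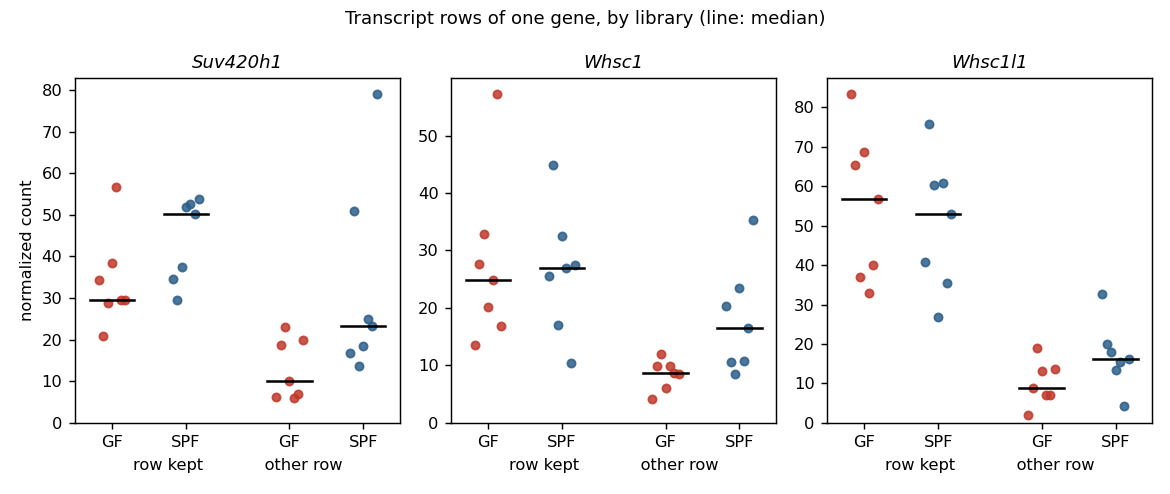
Normalized counts in each library (points) and their medians (lines) for the row kept and a second transcript row of Suv420h1, Whsc1 and Whsc1l1, with GF left of SPF. For Whsc1 the kept rows have medians of 24.9 in GF and 27.02 in SPF and the second rows 8.68 in GF and 16.4 in SPF.

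Arginine methyltransferase genes and the remaining SET genes gave no call either. Carm1, or Prmt4, which encodes a coactivator methyltransferase, ran from 93.6 to 174 in GF and from 86.7 to 144 in SPF, a difference of 0.19 ± 0.16 (SE, limma adjusted p = 0.531). Prmt1, the gene of the main asymmetric arginine methyltransferase, had medians of 65.7 in GF and 56.8 in SPF and differed by 0.23 ± 0.21 (SE). Prmt5, the gene of the main symmetric one, had medians of 83.7 in GF and 105 in SPF and differed by -0.23 ± 0.22 (SE), with a highest value of 170, in SPF 2. Prmt7 had the largest difference of the 7 tested, 0.62, but its SE was 0.58. Prmt2, Prmt3 and Prmt10, now Prmt9, lay between -0.22 and -0.08, and Prmt6, with a highest value of 13.9, was not tested. Setd3, whose product methylates a histidine of actin, averaged 109 ± 21.4 in GF and 113 ± 17.9 in SPF (SD, n = 7 each). Setd4, Setd5 and Setd6 had intervals that all included 0.

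Mll5, now Kmt2e, encodes a SET-domain protein with a chromatin-reading PHD finger and no established methyltransferase activity, and it was lower in germ-free microglia. Its normalized counts ran from 141 to 279 in GF, with a median of 161, against 195 to 294 in SPF, with a median of 233. Of the 7 GF libraries 6 lay below every SPF library, and GF 3, at 279, lay within the SPF range. The means were 178 ± 46.7 in GF and 245 ± 35.5 in SPF (SD, n = 7 each), and the log2 difference was -0.48 ± 0.14 (SE, limma adjusted p = 0.0405). Without GF 3 it was -0.59 (limma adjusted p = 0.00685). The call was lost without any of 11 other libraries, namely GF 1, 2, 4, 5, 6 and 7 and SPF 2, 4, 5, 6 and 7, and in 17 of 29 settings in all, and over the 29 the limma adjusted p ranged from 0.00685 to 0.339. Without any 1 of those 11 libraries the difference itself was still between -0.49 and -0.43. With length and GC trends removed the difference was -0.25 (limma adjusted p = 0.339).

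Among the MLL fusion partners, Mllt1 was the nearest to a call. It encodes ENL, a reader of histone acylation in the super elongation complex and in complexes with Dot1l. Mllt1 ran from 32.8 to 77.8 in GF with a median of 60.8, and from 23.4 to 46.1 in SPF with a median of 33.4. Of the 7 GF libraries 6 lay above every SPF library, with GF 5 within the SPF range, and the difference was 0.70 ± 0.22 (SE, limma adjusted p = 0.0542). It passed in 6 of 29 other settings, among them without GF 5 (0.83, limma adjusted p = 0.0202). Mllt6, Mllt10, which encodes the Dot1l cofactor AF10, and Mllt11 differed by -0.45, -0.24 and -0.27 and did not pass. Mllt3, which encodes the ENL-related AF9, and Mllt4, now Afdn, were too low to test, with 5 GF libraries at 0 for each, 3 SPF libraries at 0 for Mllt3 and 2 for Mllt4.

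Partner genes of these enzymes came from a list of 77 complex subunits, binding partners, readers, related enzymes and genes of the methyl donor cycle. The list was chosen with earlier results of these data known, so its shares of calls and of separated genes are descriptive only. Of the 77 genes, 61 were tested by the same limma fit, of which 0 rose and 2 fell. The 2 are 3.28% of those tested, against 6.68% of all genes, and 12 genes, or 19.7%, had an unadjusted p under 0.05, against 21.9% of all genes. Jarid2, which encodes a PRC2 subunit that helps to place the complex on chromatin, was lower in germ-free microglia, at 24.3 to 33.8 in GF with a median of 31.2, against 55.4 to 72.8 in SPF with a median of 58.6. All GF libraries lay below all SPF libraries, and the difference was -0.98 ± 0.19 (SE, limma adjusted p = 0.00261), the smallest adjusted p of the list. It passed in all 29 other settings (limma adjusted p 0.00108 to 0.0227). The other listed genes of PRC2 subunits that were tested gave no call and lay on both sides of 0. Phf1 differed by 0.47 and Aebp2 by 0.01, while Mtf2, Rbbp4 and Rbbp7 differed by -0.12, -0.19 and -0.35. Btg1, an antiproliferative gene whose product binds Prmt1, ran from 75.4 to 118 in GF and from 122 to 171 in SPF, again with no overlap. Complete separation was thus seen in 2 of 61 partner genes, against 2.12% of all genes, or 0.867% with GF below. Its difference was -0.49 ± 0.14 (SE, limma adjusted p = 0.0324), and 12 of 29 settings ended the call, including the removal of any of GF 1, 2, 4 and 7 and SPF 1, 4 and 5 (limma adjusted p 0.0503 to 0.0806) and with length and GC trends removed (-0.25, limma adjusted p = 0.364). The median difference of the list was -0.11 against -0.02 for all genes tested.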

How the data were processed

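Gene expression was measured by sequencing the 3' ends of polyadenylated RNA from sorted microglia, per the labels' protocols. Per the submitters' processing notes the aligner was TopHat and the genome build mm9. No source used here states the counting tool, the scaling or the use of strand. The authors deposited 1 signal value for each RefSeq transcript, termed normalized counts here. Of the positive values, between 84.5% and 86.7% per library equalled a whole number of steps within 0.01, so no count model was run. Of 18487 rows, 217 without a symbol were left out, and the row with the highest mean stood for each of 14104 genes, of which 60 of the 64 members matched RefSeq by accession. Depth is the sum over these genes divided by the step.

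Values were tested as log2(value + 1.44 normalized counts), which understates changes of low genes, for 8762 genes with a mean of at least 7.22, using limma (version 3.58.1, R 4.3.3, mean trend on), two-sided, Benjamini-Hochberg adjusted over all genes tested. "Rose" and "fell" mean an adjusted p under 0.05. A p above the threshold does not show that levels were alike. Marker sums were compared by exact permutation over 3432 divisions of the 14 libraries on the log2 scale, for which the smallest p is 0.000583. GENCODE M21 gave transcript length and GC content for 99.4% of genes. The groups came from the sample titles. The members, lists and named genes (members past the threshold, the 12 smallest p and a fixed list) were chosen with earlier results of these data known. The second transcript rows were chosen after their values were seen. The alternatives were other pseudocounts, filters, scalings and weights, a depth term, length and GC trends, other rows, a replicate block and leaving out libraries.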

Additional observations from a re-analysis of the deposited data

Results flagged for a closer look

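Of 106 groups of 7 values examined, 13 held a library far from the other 6. Chance flags about 1 in 20 groups of normally spread values, a rate that does not hold for the sums that are at or near 0 in most libraries (monocyte, neutrophil and lymphocyte markers, and Tet1). Kdm6b stood at 70.2 in SPF 4, against 124 to 153 in the other SPF libraries. Mll5 stood at 279 in GF 3, against 141 to 179 in the other GF libraries. Eed reached 44.1 in SPF 6, against 9.35 to 22.6 in the others of its group, Prmt5 reached 170 in SPF 2, against 74.3 to 115, and Tet1 reached 15.6 in GF 1, against 0 to 4.04. Among summed markers, those of erythrocytes stood at 1839 in GF 6, against 29.4 to 48.6 in the other GF libraries, and those of the cell cycle at 59.9 in GF 6, against 129 to 161. Oligodendrocyte markers summed to 210 (209.5) in GF 3, monocyte markers to 9.89 in GF 1, lymphocyte markers to 4.98 in GF 3 and neutrophil markers to 1.18 in SPF 2. Astrocyte markers summed to 153 in SPF 7 and microglia markers to 43040 in SPF 2, the lowest of their group in each case.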

How the results depend on the processing

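Kdm6b and Jarid2 kept their direction and their call in all 29 settings. Over 39 genes named, 1034 of 1122 recomputed differences kept direction and side of the threshold, and the 53 that changed sign belonged to genes with small, uncalled differences. The count of members risen was 2 in place of 1 with the pseudocount 10 times larger, the stricter filter, quantile normalization and array weights, and 1 to 2 when each library was left out. The count of members fallen was 0 in place of 1 with no filter on low values, the depth covariate, length and GC trends removed, no mean trend, the replicate block and, in an alternative chosen after seeing the data, without GF 1, GF 6 and SPF 2, and 0 to 1 when each library was left out. Calls over all genes numbered 314 with no mean trend (157 higher, 157 lower) and 318 without those 3 libraries (153 higher, 165 lower). Equal totals gave 403 lower, and leaving out each library gave 168 to 288 lower, with the fewest without SPF 7. The labels do not tie same-numbered samples to each other. Deviations of same-numbered libraries correlated between -0.057 and 0.0485, and 0 libraries correlated best with their own number, which cannot exclude a weak pairing. With the replicate block 518 genes were called in place of 585.

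Signs turned as follows, on the log2 scale. Kdm2a was 0.00079 with the larger pseudocount, 0.13 with trends removed and 0.025 without the 3 libraries. Ehmt2 was -0.012 with upper-quartile scaling, -0.020 with quantile normalization, -0.060 with equal totals, -0.11 with the depth covariate and -0.057 with trends removed. Setd8 was -0.0015 with upper-quartile scaling, -0.048 with equal totals, -0.037 with array weights and -0.34 without the 3 libraries. Ash1l was 0.0051 with quantile normalization, 0.27 with trends removed and 0.27 without the 3 libraries. Dnmt3a was 0.050 with trends removed, 0.032 with the mean of rows and 0.055 without the 3 libraries. Kdm5a was -0.060 with the depth covariate, and with trends removed Ehmt1 was 0.038, Tet2 0.023 and Tet3 0.049. Leaving out each library turned the sign of 9 genes: Ash1l ranged from -0.26 to 0.13, Dnmt3a from -0.20 to 0.12, Ehmt1 from -0.12 to 0.0057, Ehmt2 from -0.072 to 0.12, Kdm1a from -0.26 to 0.21, Kdm2a from -0.082 to 0.095, Kdm5a from -0.057 to 0.46, Setd8 from -0.14 to 0.12 and Tet3 from -0.25 to 0.038. As means of log2 values, the marker lists of microglia, neurons, astrocytes and the response to dissociation stood at -0.20 (exact permutation adjusted p = 0.0175, n = 7 each), 0.063, 0.054 and 0.16, against summed differences of 0.07, -0.19, -0.18 and -0.29, and border macrophage markers at -0.81 (exact permutation adjusted p = 0.0303) against -2.19 (0.0857). The cause of these changes was not tested. The SE was wide for low genes such as Ezh2 (0.67), Eed (0.39) and Suv39h1 (0.39), so that changes in them may have been missed. It was also wide for Kdm1a (0.42) and Kdm2b (0.36), which had higher counts. The part of depth in this was not tested beyond the depth covariate.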
